A study of Mus musculus with 384 samples.

Results

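The transcripts of 5 interleukin receptor chains, Il2rg (CD132), Il4ra (CD124), Il12rb1 (CD212), Il3ra (CD123) and Il6ra (CD126), were followed in single common lymphoid progenitors (CLPs) from mouse bone marrow. They were chosen by name, as 5 of a panel of 96 TaqMan assays, and no threshold on their values was used. CLPs are rare marrow cells that can still form B, T, natural killer and dendritic cells. The cells came from wild-type C57/Bl6 mice and were sorted for surface Flt3 and Il7r and for low Kit and Sca1, after cells with lineage markers or B220 were gated out. Each of 4 plates, P0 to P3, held 90 single-cell wells, 4 controls that received no reverse transcriptase (no-RT), 1 well with 10 cells and 1 with 20. All groups share the genotype, the strain and the sort. The labels do not say whether the plates came from separate mice, so errors and p-values over plates measure only how plates differ, and that can be technical.

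Cytokine receptors of this kind are built from chains that meet at the surface when a ligand binds. Il2rg is the common gamma chain, which serves the receptors of several interleukins, among them interleukin-7, the main survival signal of CLPs. Il4ra, Il12rb1, Il3ra and Il6ra recognise or help to recognise particular ligands and each needs a partner chain, such as Il2rg for Il4ra or Csf2rb for Il3ra, before it can signal.

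Values are threshold cycles (Ct), the number of PCR cycles after which a product was called. A lower Ct means more cDNA, and 40 stands for no product. A product was a Ct below 28, and a level is 28 minus Ct, so 1 unit is 1 cycle, nominally a doubling. Of the 90 single-cell wells of a plate, 86 passed quality control on P0 and 87 on each other plate, with a median of 43 assays with a product (range 22 to 54). The 10-cell well of P0 stood apart, with products for 29 assays against 68 to 71 in the other 10-cell wells. Of 4 surface markers of the sort, the panel held Kit alone, with a product in 97.4% ± 1.1 of cells (SD, n = 4 plates).

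The 5 chains formed an order from nearly every cell to about 1 cell in 6. Il2rg had a product in 97.1% ± 2.7 of cells (SD, n = 4 plates), in 85, 85, 86 and 81 cells of P0 to P3. Of the 10 cells without it, 6 were on P3. Il4ra had a product in 52.2% ± 4.5 of cells, in 48, 48, 45 and 40 cells of the plates in the same order. Il12rb1 followed with 30.8% ± 5.5, in 24, 22, 33 and 28 cells. Each of these steps had the same direction on 4 of 4 plates, and the smallest gap between Il4ra and Il12rb1 on a plate was 13.8 percentage points.

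Il3ra and Il6ra were at the low end and could not be ordered. Il3ra had a product in 18.7% ± 3.9 of cells, in 15, 16, 21 and 13 cells. Il6ra had one in 17.3% ± 2.5, in 14, 15, 18 and 13 cells. The difference of 1.44 ± 1.45 percentage points between them ran from 0 to 3.45 over the plates. The exact 95% binomial intervals of single plates, which cover counting error only, ran from 8.20% to 34.5% for Il3ra and from 8.20% to 30.7% for Il6ra. Sampling of this number of cells alone would give an SD over plates of 4.17 percentage points for Il3ra, 4.05 for Il6ra, 4.93 for Il12rb1, 5.35 for Il4ra and 1.78 for Il2rg, close to or above the measured SD for every chain but Il2rg. None of the 5 chains had a product in any of the 16 no-RT wells, which with 0 of 16 allows a share of up to 20.6% (exact 95% limit). The no-RT wells therefore set no tight limit on background for the least frequent chains.

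**Figure D1:**
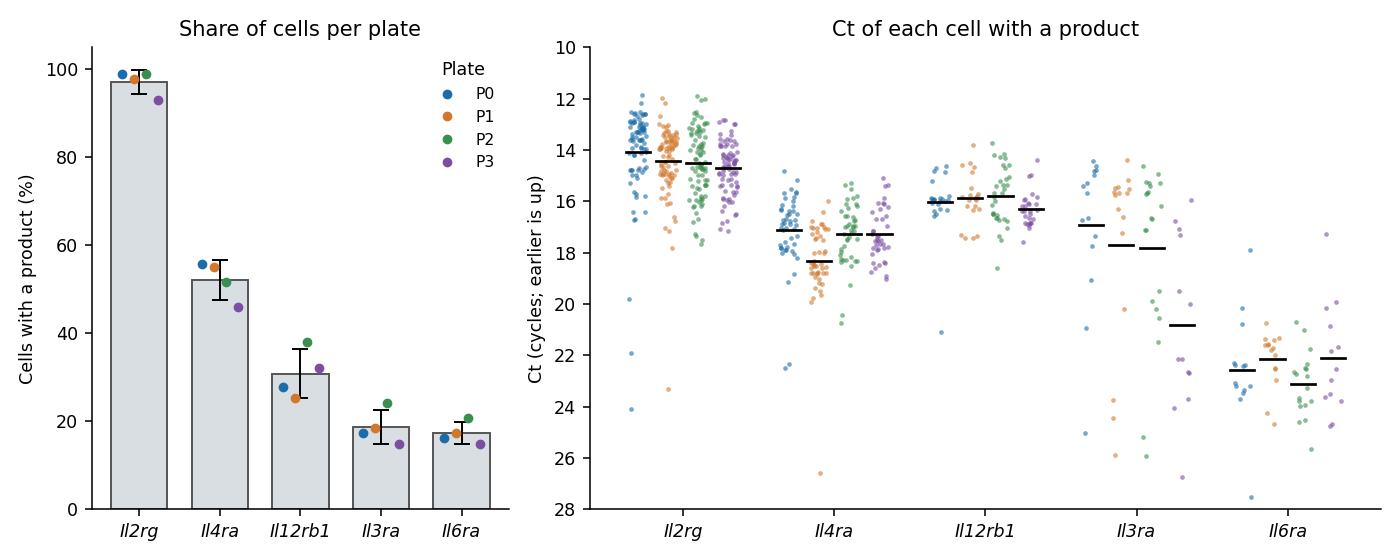
Left, the share of cells with a product for each chain (bars, mean over 4 plates; whiskers, SD; points, plates). Right, the Ct in cycles of every cell with a product, by plate, with earlier cycles at the top and black lines at the plate means. Il12rb1 stays in a narrow band around 16 and Il6ra lies near 22.5. Il3ra spreads widely with 0 cells between 18 and 19, bounds that were chosen after the values were seen.

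The order of the Ct was not the order of the shares. Assay efficiencies are not known, so the Ct of one chain against another ranks the readouts and not numbers of transcripts. Il2rg came earliest, with plate means of 14.06, 14.44, 14.51 and 14.72 from P0 to P3 (mean 14.43 ± 0.27). Il12rb1, the chain shared by the receptors of interleukin-12 and interleukin-23, was next at 15.99 ± 0.22, with plate means between 15.78 and 16.29. Its cells were the most alike, with an SD over cells of 1.03 cycles and quartiles at 15.4 and 16.5. Il4ra, found in more cells, came later, with plate means of 17.13, 18.31, 17.27 and 17.29 (mean 17.50 ± 0.55). P1 lay apart from the other plates for Il4ra. Il12rb1 was ahead of Il4ra on 4 of 4 plates, by 0.99 to 2.44 cycles.

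Il3ra, which binds interleukin-3 together with the beta common chain, was the most uneven. Its plate means were 16.91, 17.70, 17.83 and 20.82, so that P3 was about 3 cycles later than the other plates, and the mean of 18.31 ± 1.72 falls to 17.48 without P3. Il3ra followed Il4ra on 2 of 4 plates and preceded it on the other two. Its 65 cells fell into an early set of 42 cells with a Ct below 18 and a late set of 23 cells at 19 or later, with 0 cells between 18 and 19, bounds that were chosen after the values were seen. The early and late sets held 12 and 3 cells on P0, 12 and 4 on P1, 14 and 7 on P2, and 4 and 9 on P3. The late mean of P3 thus went with fewer early cells, 4 against 12 to 14, and with more late cells, 9 against 3 to 7. Il4ra had 39 cells between 18 and 19 and 16 later, and Il12rb1 1 and 1, with all others below 18. Il2rg also had 0 cells in this gap, with 4 cells later.

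Il6ra, the ligand-binding chain for interleukin-6, had the latest products of the 5, with plate means of 22.56, 22.13, 23.12 and 22.12 (mean 22.48 ± 0.47). With a median Ct of 22.52 it was the latest but 1 of the 78 assays found in 10 or more cells, after H2-M3 at 26.22. Of its 60 cells, 58 had a Ct of 19 or later. The step from Il3ra to Il6ra, 4.17 ± 1.98 cycles, had the same direction on 4 of 4 plates.

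The wells with 10 and 20 cells gave a second view of the same assays. From the share and the levels in the single cells of a plate, the number of pooled wells with a product and the Ct of such a well were predicted as a sum over independent cells. In 20-cell wells, Il2rg, Il4ra, Il12rb1 and Il3ra had products on 4 of 4 plates. Their mean Ct was 9.94 ± 0.28 for Il2rg, 13.80 ± 0.53 for Il4ra, 13.52 ± 1.16 for Il12rb1 and 14.18 ± 1.09 for Il3ra (SD, n = 4 wells). The measured Ct minus the predicted Ct was 0.25 ± 0.31, 0.11 ± 0.22, 0.43 ± 1.12 and -0.47 ± 0.67 cycles in the same order. For these 4 chains the mean of the 20-cell wells lay within 1 SD of the value that the single cells gave. This is a loose measure where wells vary, and single Il12rb1 wells lay -0.81 to 1.73 cycles from the prediction. All 4 Il2rg wells were later than predicted, by 0.04 to 0.71 cycles.

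Il6ra did not follow. Although 60 single cells had an Il6ra product, 0 of 4 wells with 20 cells did, where 3.90 wells were predicted. Of the wells with 10 cells, 1 of 4 had the product, where 3.38 were predicted, a number that includes the P0 well with few products. The 10-cell shortfall was not particular to Il6ra. SIGLEC.F (17.3% of cells) and Il2rb (14.4%) also had products in 1 of 4 wells, with 3.35 and 3.11 predicted. Cd38 (16.1%) had products in 2 wells, and Bst1 (15.9%) and Il3ra (18.7%) in 3. The 1 Il6ra product, on P1, came at a Ct of 17.62, 3.43 cycles ahead of the prediction. In the 20-cell wells a product was predicted at 19.26, 20.05, 20.55 and 18.75, well ahead of the threshold of 28. Among 69 assays found in 10% of cells or more, 62 had products in all 4 wells with 20 cells, 5 in 3 wells, 1 in 2 wells (Cd68) and 1, Il6ra, in 0. H2-M3, later still in single cells and found in 10.1% of them, had a product in 3 of 4 such wells, where 3.35 were predicted. The cause was not tested, and every statement on Il6ra below rests on the single-cell wells alone.

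In 10-cell wells the other chains had products on P1, P2 and P3. On P0, the well with few products, Il4ra, Il12rb1 and Il3ra had none, and Il2rg came at a Ct of 24.91 against 9.93 to 11.04 on the other plates. Without P0 the 10-cell Ct minus the predicted Ct was -0.31 ± 0.36 for Il2rg, -0.92 ± 0.31 for Il4ra, 0.51 ± 1.22 for Il12rb1 and -0.20 ± 2.38 for Il3ra (n = 3 wells). Il4ra came ahead of its prediction in each of these 3 wells. With P0 the value of Il2rg was 3.45 ± 7.51.

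**Figure D2:**
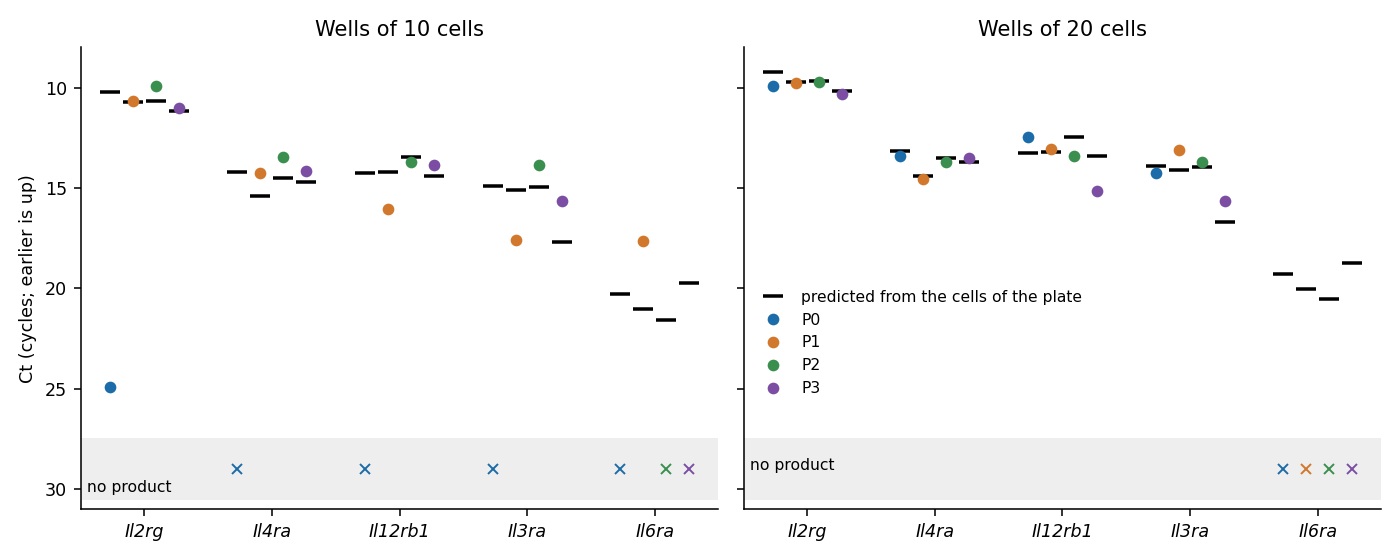
Ct in cycles (earlier at the top) of the 10-cell and 20-cell well of each plate, with crosses in the grey band for wells without a product and black bars at the Ct predicted from the single cells of the same plate. Il6ra has no product in any 20-cell well although bars between 18.75 and 20.55 are predicted, and the 10-cell well of P0 stands apart for Il2rg, Il4ra, Il12rb1 and Il3ra.

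The chains were next compared cell by cell, whether or not they form a receptor together. Il2rg was present in nearly all cells that carried another chain: in 64 of 65 Il3ra cells, 58 of 60 Il6ra cells, all Il12rb1 cells but 1 (99.1%) and all Il4ra cells but 6 (96.7%). It was also present in 49 of the 50 cells with Il2rb, the beta chain with which it forms the receptors of interleukin-2 and interleukin-15. These shares are close to that of Il2rg in all cells. Because it lay above the upper limit of 95% for testable genes, Il2rg did not enter the tests of co-detection. The 10 cells without it had a median of 37.5 other assays with a product, against 42 in cells with it.

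Of the other chains, 83 cells had none, 87 had 2, 31 had 3 and 0 had all 4, which allows a share of up to 0.865%. Cells with 1 chain were the most frequent, 42.1% ± 5.4 of cells (SD, n = 4 plates). Independent detection within plates would give 77.4 cells with none, 152.5 with 1, 92.8 with 2, 22.4 with 3 and 1.91 with 4. The measured counts thus lay within 9 cells of independence at each number. The share of cells with 3 chains was 7.0%, 8.0%, 14.9% and 5.7% on P0 to P3, against 5.9%, 5.8%, 9.4% and 4.8% for independence, so P2 gave most of the excess.

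**Figure D3:**
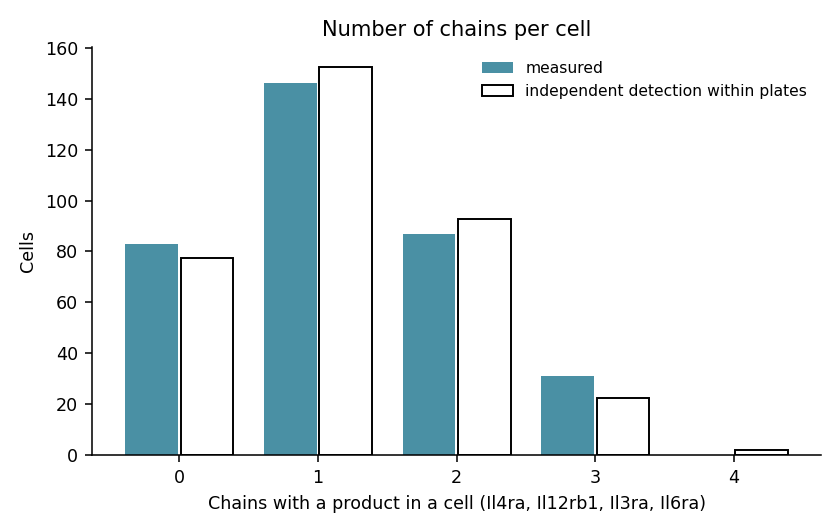
Number of cells with products for 0 to 4 of Il4ra, Il12rb1, Il3ra and Il6ra (filled bars) beside the number that independent detection within plates gives (open bars). The largest gap is at 3 chains, 31 cells against 22.4.

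Co-detection of each pair of genes was measured as the log2 odds ratio within a plate and tested against 0 over the 4 plates with limma, with adjustment over all 1176 pairs of 49 genes. Of these pairs, 54 (4.59%) passed an adjusted p of 0.05, 35 above 0 and 19 below. With each plate centred on its mean over all pairs, which moved the median of all pairs from 0.11 to -0.02, 23 lay above 0 and 20 below. Each of Il4ra, Il12rb1, Il3ra and Il6ra entered 48 pairs, and 3 of all their pairs (1.61%) passed, 2 above 0 and 1 below, with 18 at an unadjusted p under 0.05. Their median log2 odds ratio was 0.01.

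Among the 6 pairs of chains, 0 passed, and 0 had an unadjusted p under 0.05 (limma; adjusted p from 0.54 to 0.88). The largest value of the 6 was the negative one for Il3ra and Il6ra, at -0.71 ± 1.17 (SD, n = 4 plates), with 7 cells carrying both where 11.5 were predicted. It was negative on P0, P1 and P2, between -1.38 and -1.16, and 1.03 on P3. Il4ra and Il12rb1 were found together in 61 cells (predicted 55.5), with a log2 odds ratio of 0.43 ± 0.78. The other pairs lay between 0.18 and 0.26.

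The 3 called pairs joined Il4ra and Il12rb1 to Cd34 and Il12rb1 to Cd38. Cd34 is a sialomucin of stem and progenitor cells, and Cd38 an ectoenzyme that consumes NAD. Il12rb1 and Cd38 were seldom in the same cell: 0, 1, 2 and 2 cells of P0 to P3 carried both, 5 in all where 17.2 were predicted. Il12rb1 had a product in 8.9% ± 7.1 of Cd38 cells and in 35.0% ± 5.4 of cells without Cd38. The log2 odds ratio of Il12rb1 with Cd38 was -2.27 ± 0.99 (adjusted p = 0.0227, limma), with -3.74, -1.88, -1.57 and -1.88 on P0 to P3. The size of the P0 value, where 0 cells carried both, depends on the 0.5 added to each count. The log2 odds ratio was below 0 on every plate. Without P0 it was -1.78 (adjusted p = 0.0872), without P1 -2.40 (0.0858) and without P3 -2.40 (0.101), so the call needs each of these plates, while without P2 it passed at -2.50 (0.0332). None of the other chains had a called pair with Cd38, and their values were -0.59 ± 0.53 for Il4ra, -0.52 ± 0.66 for Il3ra and 0.62 ± 1.34 for Il6ra.

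Il4ra was found without Cd34 in 3 cells, 1 each on P0, P1 and P2, where 4, 4 and 2 further cells had neither. Its share was 54.3% ± 4.1 in Cd34 cells and 18.3% ± 13.7 in cells without Cd34. The log2 odds ratio was 2.15 ± 1.15 (adjusted p = 0.0353, limma), with 2.05, 2.00, 0.87 and 3.67 on P0 to P3. Il12rb1 was found without Cd34 in 1 cell, on P3, and had a log2 odds ratio of 1.83 ± 0.64 (adjusted p = 0.0380, limma) and plate values of 2.23, 2.03, 2.19 and 0.89. On P0, P1 and P2, 0 Il12rb1 cells lacked Cd34, so these values and their likeness depend on the 0.5 added to each count. The P3 value of Il4ra, with 0 such cells, depends on it too. Both pairs rest on the 19 cells that lack Cd34, of which 3 carried Il4ra and 1 carried Il12rb1. Of these cells, 13 carried Pax5, found in 25.9% ± 2.0 of all cells, and 9 were among the 56 cells with Cd38, and the part of either in the called pairs was not tested. The cells without Cd34 had a median of 39 other assays with a product, against 42 in cells with it. With cells split within plates by that number, the pairs passed at 2.11 (adjusted p = 0.0425, limma) for Il4ra and 1.76 (0.0452) for Il12rb1. The 19 cells, divided over 4 plates and then split, leave few in each part. The split therefore does not test the part of yield in these pairs. The Il4ra pair did not pass without P0 (2.18, adjusted p = 0.0737), P1 (2.19, 0.117) or P3 (1.64, 0.173), and the Il12rb1 pair did not pass without any one of the plates (1.70 to 2.15, adjusted p from 0.0880 to 0.146). The Il12rb1 pair was also lost with a pseudocount of 1 in the odds ratio (1.14, 0.0854) and with each plate centred (1.71, 0.0532). Il3ra and Il6ra, each with 3 of the 19 cells, gave 0.01 ± 1.59 and -0.06 ± 1.46 with Cd34.

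**Figure D4:**
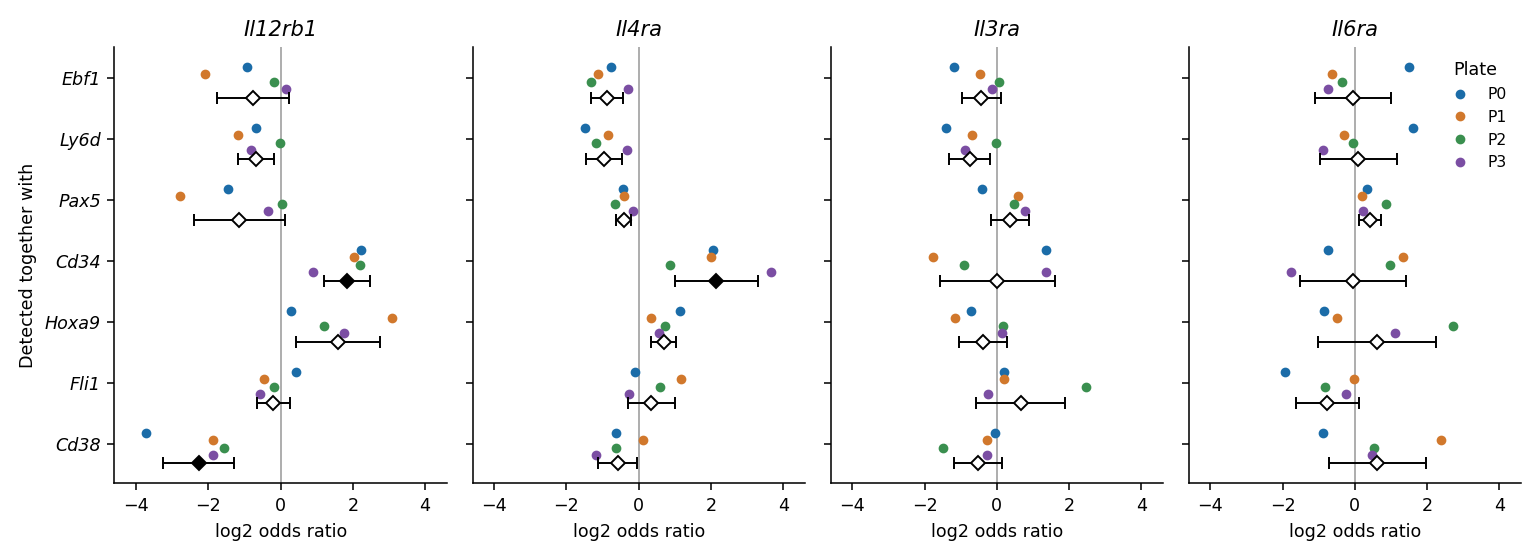
Log2 odds ratio of co-detection of 4 chains with the B genes Ebf1, Ly6d and Pax5, the stem and multipotent genes Cd34, Hoxa9 and Fli1, and Cd38 (coloured points, plates; diamonds with whiskers, mean and SD over 4 plates; filled diamonds, adjusted p under 0.05 by limma). Filled diamonds stand at 1.83 and -2.27 for Il12rb1 and at 2.15 for Il4ra, and the diamonds of Il4ra and Il12rb1 with the B genes all lie to the left of 0.

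The relation to the B genes was read from Ebf1 and Pax5, transcription factors of B cell specification and commitment, and Ly6d, a surface protein that marks B-biased CLPs. Of the 12 pairs of these genes with the 4 chains, 0 passed, and 2 had an unadjusted p under 0.05 (limma). Their median was -0.56. Il4ra had negative values with each gene on each plate: -0.88 ± 0.45 with Ebf1, -0.96 ± 0.50 with Ly6d and -0.41 ± 0.21 with Pax5 (adjusted p = 0.317, 0.277 and 0.699). Il4ra had a product in 47.9% ± 4.3 of Ebf1 cells and in 63.2% ± 8.9 of cells without Ebf1. Il12rb1 had -0.77 ± 0.99 with Ebf1, -0.68 ± 0.49 with Ly6d and -1.14 ± 1.27 with Pax5 (adjusted p = 0.473, 0.474 and 0.294). The Pax5 value of Il12rb1 ranged from -2.79 on P1 to 0.04 on P2. Il3ra gave -0.43, -0.75 and 0.36 with Ebf1, Ly6d and Pax5, and Il6ra -0.06, 0.09 and 0.41, so these chains showed no common sign with the B genes.

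None of the 8 pairs with the other stem and multipotent genes, Hoxa9 and Fli1, passed, and 1 had an unadjusted p under 0.05 (limma). Hoxa9 is a homeobox factor of early progenitors and Fli1 an Ets factor of stem and progenitor cells. Il12rb1 had 1.59 ± 1.17 with Hoxa9 (adjusted p = 0.115, limma), above 0 on 4 of 4 plates, with products in 33.6% ± 5.8 of Hoxa9 cells and 13.9% ± 10.3 of the others. Il4ra had 0.69 ± 0.34 with Hoxa9 (adjusted p = 0.453), above 0 on 4 of 4 plates. With Fli1 the values were 0.35 ± 0.66 for Il4ra and -0.20 ± 0.45 for Il12rb1. Il3ra gave -0.39 with Hoxa9 and 0.66 with Fli1, and Il6ra 0.62 and -0.76. Over the 12 pairs with Cd34, Hoxa9 and Fli1 the median was 0.48, and the 2 called pairs were those with Cd34. Grouped by how many of these 3 products a cell had, Il4ra was found in 37.0% ± 7.3 of the 34 cells with 1, 52.7% ± 4.1 of cells with 2 and 56.6% ± 6.0 of cells with 3. Il12rb1 was found in 13.2% ± 10.5, 34.6% ± 5.3 and 31.5% ± 5.8 of the same cells. The 6 cells with 0 of the 3 products carried neither chain. Because Cd34 is 1 of the 3 genes, this grouping partly restates the called pairs.

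Cells were then placed by their B genes, from 62 cells with none of Ebf1, Ly6d and Pax5, through 66 with Ebf1 or Ly6d alone and the largest class with Ebf1 and Ly6d but no Pax5, to 90 with Pax5. Il12rb1 was found in 44.4% ± 7.2, 28.3% ± 5.0, 32.7% ± 6.9 and 21.1% ± 14.9 of these cells. Il4ra was found in 62.8% ± 13.5, 64.9% ± 8.4, 44.0% ± 4.1 and 46.7% ± 3.8. Il3ra (24.2%, 19.6%, 14.2% and 21.2%) and Il6ra (17.6%, 15.7%, 15.6% and 20.2%) had no steady direction. Il2rg was found in 92.4% ± 10.1, 95.4% ± 3.3 and 98.5% ± 1.7 of the first 3 classes and in 89 of the 90 Pax5 cells.

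**Figure D5:**
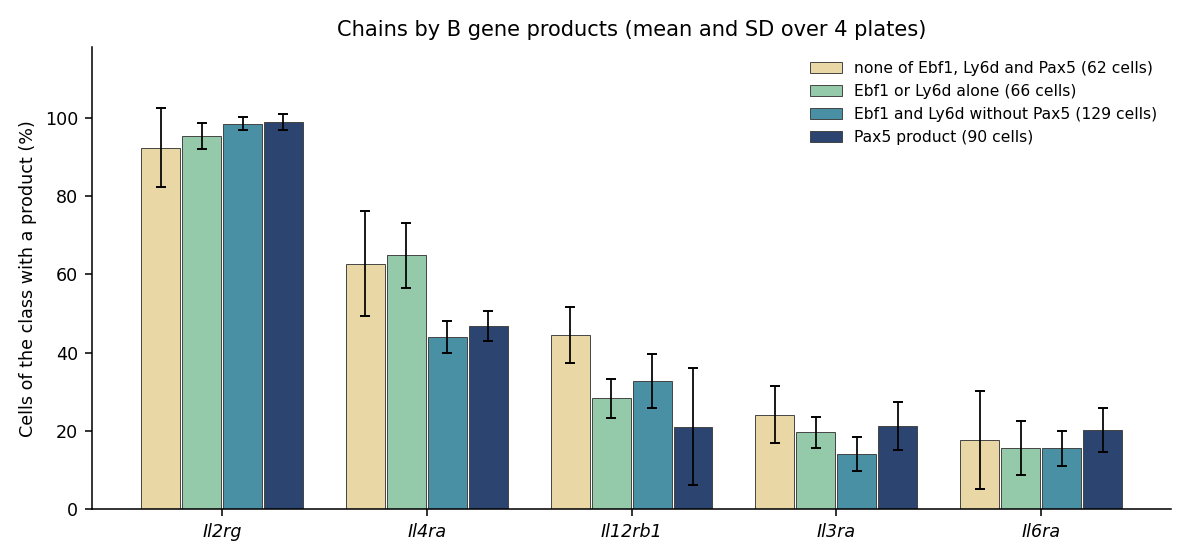
Share of cells with each chain in 4 classes of cells defined by products of Ebf1, Ly6d and Pax5 (bars, mean over 4 plates; whiskers, SD, cut at 0). Il12rb1 goes from 44.4% in cells with none of the 3 to 21.1% in Pax5 cells, with a wide spread between plates in the latter.

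Cells with Pax5 were compared with cells with none of the 3 genes by the log2 odds ratio per plate. Of the 46 genes that entered, 16 (34.8%) passed an adjusted p of 0.05 (limma), 8 higher and 8 lower in Pax5 cells. Of the 4 chains, 0 passed, and 1 had an unadjusted p under 0.05. That chain was Il12rb1 at -1.76 ± 1.67 (adjusted p = 0.0555), with plate values of -1.79, -4.08, -0.27 and -0.92. Its value rested on single plates: without P1 it was -0.99 (adjusted p = 0.354), and without P2 it passed at -2.26 (0.0186). It also passed with a pseudocount of 1 (-1.62, 0.0380) and with each plate centred on its mean (-1.66, 0.0441). Il4ra gave -0.91 ± 0.65 (adjusted p = 0.173), Il3ra -0.26 ± 0.85 and Il6ra 0.55 ± 1.73.

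Levels within cells that had a product were compared separately from detection. The mean level was compared between cells with and without Ebf1, Ly6d, Pax5, Cd34, Hoxa9 or Fli1, for 250 combinations with enough cells, of which 12 (4.8%) passed (limma), 8 higher and 4 lower. Of the 20 combinations with a chain, 0 passed and 2 had an unadjusted p under 0.05. Il3ra was 1.57 ± 1.51 cycles earlier in Fli1 cells than in cells without Fli1 (adjusted p = 0.199), with 2.87, 0.39, 0.14 and 2.88 on P0 to P3. Il2rg was 0.79 ± 0.79 cycles earlier in Hoxa9 cells (adjusted p = 0.227), a value that became -0.33 when levels were centred on the reference genes of each cell. Il4ra was later in Ebf1 cells on every plate, with a level difference of -0.43 ± 0.26 (adjusted p = 0.269). In Fli1 cells Il4ra and Il12rb1 were earlier on every plate, by 0.45 ± 0.32 and 0.38 ± 0.27 cycles (adjusted p = 0.275 and 0.320, limma). The Il12rb1 value changed sign when levels were centred on the reference genes. Il3ra had -0.96 ± 1.29 with Ebf1 (adjusted p = 0.320), passed without P0 at -1.59 (0.0495), and turned to 0.16 when levels were centred on the reference genes.

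The level of each chain was also set beside the reference genes of the same cell. Across the 81 to 86 cells of a plate with Il2rg, its level had a Spearman correlation of 0.40 to 0.54 per plate with the mean level of the references Atp5a1, Tfrc and Hprt. The range was 0.29 to 0.45 for Il4ra (40 to 48 cells per plate), 0.19 to 0.41 for Il12rb1 (22 to 33), 0.39 to 0.48 for Il6ra (13 to 18) and -0.15 to 0.43 for Il3ra (13 to 21). In the 61 cells with both, Il4ra and Il12rb1 had correlations of 0.18 to 0.69. Values of 1 cell share its lysis, reverse transcription and pre-amplification, and these correlations are descriptions with no test.

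The genes most like each chain were taken as those with the largest log2 odds ratio of the same sign on 4 of 4 plates. For Il12rb1 these were Cd34, Hoxa9 and Csf3r (1.15 ± 0.98), the receptor of granulocyte colony-stimulating factor, and the least like were Cd38, Gfra2 (-0.89 ± 1.02) and Ly6d. For Il4ra they were Cd34, Gata3 (0.73 ± 0.74) and Hoxa9, and the least like Klf4 (-1.54 ± 1.03), Gfra2 (-1.18 ± 0.36) and Ly6d. For Il3ra they were Cd244a (1.65 ± 0.93, adjusted p = 0.0789, limma), Gfi1 (0.84 ± 0.83) and CD284 (0.65 ± 0.66), and the least like Cd5 (-1.22 ± 0.80), Ly6d and Cd38. For Il6ra they were H2-M3 (1.05 ± 0.88), Gfra2 (0.50 ± 0.55) and Pax5, and only Fli1 was below 0 on 4 of 4 plates. Apart from the pairs with Cd34 and Cd38, none of these passed (adjusted p from 0.0789 to 0.70, limma). Cd244a was found in 90.8% of cells, so its value with Il3ra rests on the few without it, 1 with Il3ra and 31 with neither. Ly6d was among the least like genes of Il12rb1, Il4ra and Il3ra.

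Of a list of 34 other cytokine receptor genes, 7 could be matched to the panel by name. The list also holds Ifnar1, and the panel an assay named INFA_BR1, which was matched to no gene and is not counted here. INFA_BR1 had a product in 130 cells (37.5%), and whether it targets Ifnar1 was not checked. Of the 7, Kit and Csf3r were the most frequent, in 97.4% ± 1.1 and 48.7% ± 4.1 of cells. Next came Gfra2 (25.1% ± 3.5), Csf1r (22.2% ± 2.1), Il2rb (14.4% ± 3.3) and Tnfrsf4 (7.5% ± 4.5). Il5ra, which shares its partner chain with Il3ra, had a product in 0 cells, which allows a share of up to 0.865%, and in none of the pooled wells, so this assay gave no product in any well with cells. Of the 20 pairs of the testable receptors among these 7 with Il4ra, Il12rb1, Il3ra and Il6ra, 0 passed and 4 had an unadjusted p under 0.05 (limma), with a median of 0.17.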

How the data were processed

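Per the labels' protocols, each sorted cell was lysed and frozen in its well, its RNA was reverse transcribed and pre-amplified there with the 96 TaqMan assays, and products were read on a Fluidigm array (BioMark HD). The authors deposited Ct without normalization, a cycle number that falls by 1 for a nominal doubling; how the instrument's threshold was set is not given. Pre-amplification multiplies every product, and the sensitivity of each assay is not known, so a missing product means not detected. Columns were tied to samples by title, and 0 were left unmapped. Names came from a RefSeq gene table of GRCm38.p6 (47 symbols and 34 synonyms matched, 15 did not), used for names only; positions and sequences of the assays were not analysed here.

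A single-cell well was kept with products for more than 50% of the references (Atp5a1, Tfrc, Hprt) and, at the lowest, 50% of the assays of a median cell of the plate. This removed 13 wells, 10 of them identical columns without any product. Of all values, 22 lay between 28 and 40, none of them of a chain. Intervals are exact at 95%, and the limit for 0 cells uses 3 counts. Odds ratios had 0.5 added to each cell of the table and took genes in 5% to 95% of cells and fewer than 4 of 16 no-RT wells. Level comparisons needed at least 3 cells on each side on each plate. An intercept-only model over the 4 plates was fitted with limma (version 3.58.1, R 4.3.3); p-values were adjusted over every feature tested by the Benjamini-Hochberg method, with a threshold of 0.05. Plates are the replicates, and every contrast was formed within a plate. The scripts were tested on simulated data.

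The members, gene lists and tests were chosen with earlier results of these data known. Named are the chains, genes of called pairs, the 3 genes with the largest and the 3 with the smallest log2 odds ratio of one sign on 4 of 4 plates, the B, stem and cytokine receptor genes, and level comparisons with an unadjusted p under 0.1; H2-M3 and Cd68 were added after their values were seen. Alternatives were other Ct thresholds, no quality control, another pseudocount, other gene filters, centring, splits by yield and leaving out each plate.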

Additional observations from a re-analysis of the deposited data

Results flagged for a closer look

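Of 56 values over 4 plates, 8 had 1 plate far from the others by Dixon's criterion; chance alone marks about 1 in 20. P1 had a late mean Ct of Il4ra, 18.31, and the largest level difference of Il4ra by Ebf1, -0.83. P0 gave the 10-cell Ct of Il2rg of 24.91, the lowest log2 odds ratio of Il12rb1 with Cd38, -3.74, and the highest of Il6ra with Ebf1, 1.505. P3 gave 1.03 for Il3ra with Il6ra and 0.89 for Il12rb1 with Cd34, and P2 gave 2.48 for Il3ra with Fli1. The 10-cell well of P0 had few products. The causes of the others were not tested. Il12rb1 with Cd38 had a count of 0 on P0, and Il12rb1 with Cd34 had a count of 0 on P0, P1 and P2. Those plate values depend on the 0.5 added to each count.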

How the results depend on the processing

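The plates limit what can be called: 4 replicates, and few cells behind the late products of Il6ra and the 19 cells without Cd34. No paired analysis was possible because the replicate numbers belong to wells and pair no cells; the plate already pairs both sides of every comparison. The cause of the changes below was not tested. The share of Il2rg was 93.6% without quality control, which takes in wells without any product. The called share of all pairs, 4.59%, was 21.8% without quality control, 9.18% with a pseudocount of 1, 11.5% with genes in 2% to 98% of cells (an alternative chosen after seeing the data) and 0.935% to 3.66% when each plate was left out; the number of called pairs with a chain was 48, 3, 25 and 0 to 2, and 1 with genes in 10% to 90% of cells, where Cd34 could not be tested. In the added setting 60 pairs of Il2rg entered, 8 called above 0 and 13 below, all resting on the 10 cells without it. Genes that differed between Pax5 cells and cells with none of the B genes were 25 without quality control. There the chains called were 1 with the added filter, plate centring, no quality control or a pseudocount of 1, and 0 to 1 without a plate. Level comparisons passed in 20 combinations with at least 5 cells, 19 with medians, and 0 to 8 without a plate, with 0 to 1 for the chains.

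Directions turned in uncalled values alone. Il3ra with Cd34 gave -0.019 with cells split by assays, -0.17 split by reference Ct, -0.11 centred, -0.45 with a pseudocount of 1 and -0.44 to 0.60 without a plate. Il3ra with Hoxa9 (0.027), Il6ra with Cd34 (0.69), Il6ra with Ebf1 (0.17) and Il3ra in Pax5 cells (0.068) turned without quality control, and Il6ra with Ly6d when split by assays (-0.055) or centred (-0.035). Leaving out a plate in turn gave -0.013 to 0.41 for Il3ra with Il12rb1, -0.52 to 0.51 for Il6ra with Cd34, -0.58 to 0.17 with Ebf1, -0.077 to 1.11 with Hoxa9 and -0.41 to 0.41 with Ly6d, and in Pax5 cells -0.49 to 0.12 for Il3ra and -0.27 to 1.07 for Il6ra. Centring levels on the references turned the level differences of Il3ra with Ebf1 (0.16), Il2rg with Hoxa9 (-0.33) and Il12rb1 with Fli1 (-0.55, from 0.38). The part of the few cells without a product for a reference in these turns was not tested. The shares of the other chains and the mean Ct of all 5 moved by less than their SD under every alternative run.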
